A study of Mus musculus with 4 samples.

Results

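The respiratory chain passes electrons from NADH and succinate to oxygen across the inner mitochondrial membrane, and its last complex makes ATP. The genes described here are 53 of the 32285 genes in the deposited count matrix: 40 nuclear members and 13 mitochondrial members, found by symbol from a given list. Grouped by gene symbol, the nuclear members are 14 of complex I (Ndufa4 among them), 3 of complex II, 5 of complex III, 9 of complex IV and 9 of complex V. The mitochondrial members are all the protein genes of the mouse mitochondrial genome, with 7 subunits of complex I, 1 of complex III, 3 of complex IV and 2 of complex V. No cut-off on a measured value picked the members, but they were chosen with earlier results of these data known.

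The study profiled cells of the small-intestinal epithelial layer from male C57BL/6J mice aged 15 weeks by 3′ single-cell RNA sequencing with unique molecular identifiers (UMIs, 1 per captured transcript). The labels name 2 control samples and 2 IPA samples. High-fat feeding and l-NAME, a nitric oxide synthase inhibitor, were common to all 4 samples for 7 weeks, and IPA (indolepropionic acid, a bacterial tryptophan metabolite) was added at 562.5 mg per kg of diet in 2 of them. Each sample was a pool of 2 mice, and DAPI-negative cells were sorted, so live immune cells of the epithelium are present beside the epithelial cells.

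The 4 libraries are told apart only by a number on the cell barcode, and no label or header used here ties that number to a sample. They are therefore called libraries 1 to 4, no library was assigned to a diet, and control and IPA are not compared. Contrasts between cell classes and between villus positions were made within libraries, with library as a block.

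Complex I takes electrons from NADH, complex II from succinate, complex III hands them to cytochrome c, complex IV to oxygen, and complex V is the ATP synthase. Complexes I, III, IV and V are built from both genomes, while complex II is encoded in the nucleus alone. In the small intestine, absorptive enterocytes arise from crypt stem cells, mature as they climb the villus and are shed at the tip. Mitochondrial mRNAs are cut from long transcripts that cover most of the circular genome, so their levels are tied in part by a common precursor.

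Some mitochondrial genes overlap on the same strand, which limits how their reads can be told apart. These stretches are shown because mt-Nd4l and mt-Atp8, the members that differed most between libraries, lie in part in them. The reference (GENCODE vM21, GRCm38) places the start of mt-Atp6 inside mt-Atp8, at chrM:7927-7969 on the plus strand, with 43 shared bases. It places the start of mt-Nd4 inside mt-Nd4l, at chrM:10167-10173 on the plus strand, with 7 shared bases. Capitals mark the shared bases:
mt-Atp8 and mt-Atp6: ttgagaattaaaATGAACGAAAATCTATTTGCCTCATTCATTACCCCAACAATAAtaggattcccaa
mt-Nd4l and mt-Nd4: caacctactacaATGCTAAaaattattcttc
The ends of mt-Nd5 and mt-Nd6 lie on opposite strands and overlap by 14 bases, at chrM:13552-13565. How reads in the shared bases were assigned is not given in the sources used here.

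Nuclear members moved together in most of the contrasts that follow, and some of their promoters hold motifs long associated with respiratory genes. RefSeq windows of 300 bases around the start site (GRCm38.p6) matched 31 of the 40 nuclear members, in 34 windows. The motif of NRF1 (nuclear respiratory factor), searched on both strands, was in 10 of the 34 windows (29.4%) and in 4.60% of all 32851 windows. The motif of GABP (also called NRF2), searched as CCGGAAG on both strands, was also in 10 of the 34 windows (29.4%) and in 8.86% of all windows. The 250 bases before the RefSeq start of Cox6a1 (chr5:115348959-115349208, minus strand) and of Atp5h (chr11:115419920-115420169, minus strand) held both, in capitals, with GABP on the opposite strand. GENCODE starts these genes further upstream, at chr5:115348981 and chr11:115419962. By GENCODE the GABP match of each therefore lies inside the gene. A match describes these letters and is not a measured binding site:
Cox6a1: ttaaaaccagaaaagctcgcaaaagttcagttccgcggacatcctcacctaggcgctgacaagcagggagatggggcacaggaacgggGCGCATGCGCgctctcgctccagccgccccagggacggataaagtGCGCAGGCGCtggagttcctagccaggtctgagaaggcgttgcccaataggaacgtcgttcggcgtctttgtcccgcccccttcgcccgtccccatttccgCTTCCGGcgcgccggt
Atp5h: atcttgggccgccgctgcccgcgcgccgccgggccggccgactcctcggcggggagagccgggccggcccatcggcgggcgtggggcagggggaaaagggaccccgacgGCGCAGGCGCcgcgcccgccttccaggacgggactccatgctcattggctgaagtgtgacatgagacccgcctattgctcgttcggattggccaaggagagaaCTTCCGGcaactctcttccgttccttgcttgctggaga
Cox6a1 encodes a complex IV subunit and Atp5h a subunit of the ATP synthase stalk. In both windows the motifs lay apart, with no shared base.

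Of 44277 barcodes, 25788 had 500 UMIs or more, 250 genes or more and no more than 25% of UMIs from mitochondrial genes, and only these were used. The libraries held 6174, 7122, 6307 and 6185 kept barcodes with median depths of 27622, 27135, 22601 and 26017 UMIs. Among barcodes that passed the enterocyte gate, 19.2%, 11.1%, 31.6% and 16.0% in libraries 1 to 4 exceeded the 25% limit and were left out, which bears directly on mitochondrial levels. In all, 75 barcode sequences were kept in 2 libraries. T-like cells numbered 319 and 1242 in libraries 1 and 3 but 4 and 5 in libraries 2 and 4. Classes were gated on summed marker genes and carry the suffix -like. The gate fixed a high level of each class's own markers, for example goblet markers at 256401 to 374474 CPM (UMIs scaled to a total of 1000000) against 234.7 to 476.1 CPM in enterocyte-like cells, so these levels do not test the class names. Summed stromal markers were at most 86.8 CPM in any class. Of the UMIs in kept barcodes, 14.3% belonged to the 53 members.

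Enterocyte-like cells carried the largest share of respiratory chain transcripts among the gated classes by nuclear members, and by mitochondrial members in the median. In libraries 1 to 4 the 13 mitochondrial members made up 11.9%, 11.2%, 12.8% and 11.7% of their UMIs. The 40 nuclear members made up 4.03%, 4.202%, 3.68% and 3.94%. A further 2872 barcodes passed no gate, and their nuclear share was higher still, at 4.22%, 4.26%, 3.95% and 4.29%. Their mitochondrial share was 9.73%, 9.22%, 9.74% and 8.62%. Medians over libraries for the other epithelial classes were 8.79% mitochondrial and 3.02% nuclear in stem-like cells, 7.94% and 3.57% in cycling epithelial-like cells, and 10.7% and 3.31% in tuft-like cells. Enteroendocrine-like cells had 6.11% and 2.08%, and goblet-like cells had 4.85% and 1.82%. Paneth-like cells, whose leading genes were mostly defensins, were lowest with 2.81% and 0.692%. These values came from 14, 76, 41 and 14 cells. Their median depth was 13222 UMIs in library 2 and 74029.5 to 123820 in the others. Exact intervals for the shares of all classes are narrow and cover counting error only. A share also falls when other transcripts rise, and captured UMIs per cell gave another order. Nuclear members gave 1599, 1365, 1533 and 1372 UMIs per cycling epithelial-like cell in libraries 1 to 4, above the 1009.9, 1125, 937.8 and 983.5 per enterocyte-like cell in 4 of 4 libraries, at median depths of 33798 to 42872 UMIs. Goblet-like cells held 364.5, 389.0, 488.0 and 410.2 per cell, at median depths of 21673 to 27975 UMIs.

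**Figure D1:**
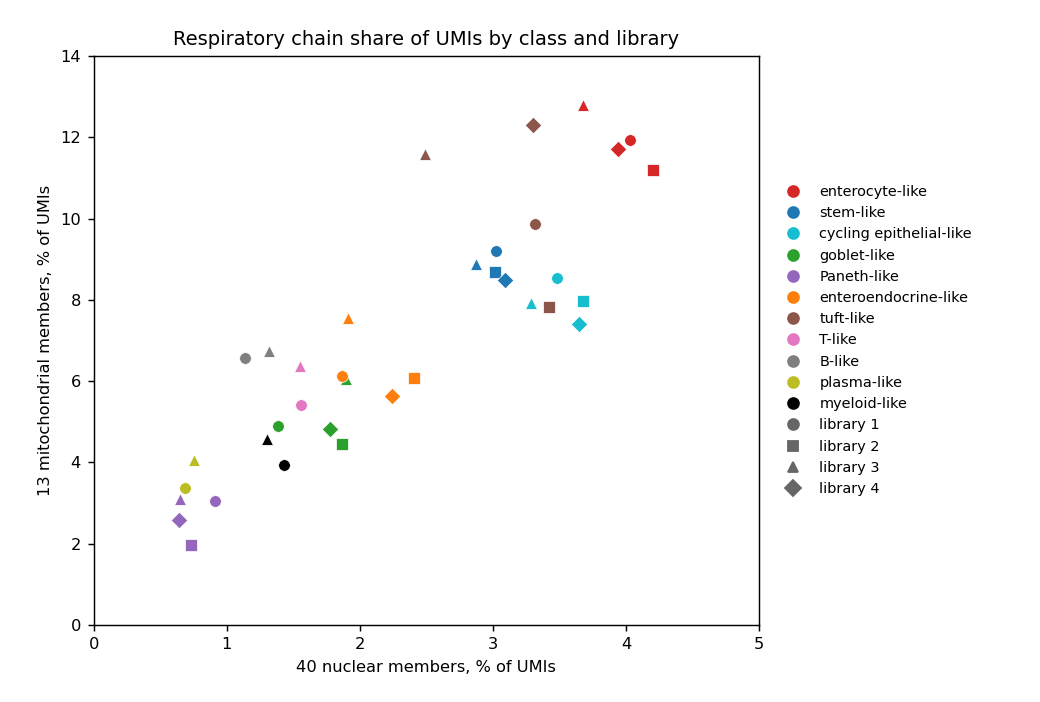
Share of UMIs from the 40 nuclear members (x axis, %) against the 13 mitochondrial members (y axis, %), 1 point per class and library with enough cells. The 4 enterocyte-like points lie at 11.2% to 12.8% mitochondrial and 3.68% to 4.202% nuclear, and tuft-like cells of library 4 come near them on the mitochondrial axis with 12.3%.

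Both shares were lower than in enterocyte-like cells in 4 of 4 libraries for stem-like, cycling epithelial-like, goblet-like, Paneth-like and enteroendocrine-like cells. For tuft-like cells the nuclear share was lower in 4 of 4 libraries and the mitochondrial share in 3 of 4, from 12 to 22 cells per library. The exact paired permutation test over 4 libraries cannot go below p = 0.125 (two-sided), and each of these shares that was lower in 4 of 4 libraries gave that value (0.17 adjusted over 19 such tests). The ratio of mitochondrial to nuclear members was 2.96, 2.66, 3.48 and 2.98 in enterocyte-like cells. In cycling epithelial-like cells it was 2.46, 2.17, 2.41 and 2.03, below every enterocyte-like library (exact permutation p = 0.125). Barcodes that passed no gate had like ratios of 2.30, 2.17, 2.47 and 2.01. In Paneth-like cells the ratio was above that of enterocyte-like cells in 4 of 4 libraries (exact permutation p = 0.125). In stem-like cells the ratio was 3.04, 2.88, 3.09 and 2.74, which overlapped the enterocyte-like libraries.

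Gene by gene, edgeR's quasi-likelihood test on UMIs summed per library and class, with library as a block and Benjamini-Hochberg adjustment over all genes, compared each class with enterocyte-like cells. All such values below are log2 differences after TMM scaling, which sets each sum against the bulk of its genes. In stem-like cells 40 of 40 nuclear and 13 of 13 mitochondrial members were called lower at adjusted p under 0.05, where 41.2% of the 12390 genes tested were called lower and 39.4% higher. Their medians were -1.08 and -1.09, beside -0.04 over all genes. Scaled by library totals instead, the median of all genes moved to 0.65, the medians of the members to -0.37 and -0.38, and 29 nuclear and 8 mitochondrial members were called lower. With those totals 69.9% of the genes called in the stem-like contrast were higher, against 48.9% with TMM, so that the size of every value here is relative to that shift.

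Cycling epithelial-like cells had 39 of 40 nuclear and 13 of 13 mitochondrial members lower, with medians of -0.90 and -1.15, where 41.9% of genes were called lower. With library totals this fell to 12 nuclear and 10 mitochondrial members (medians -0.19 and -0.44), 1 nuclear member was called higher, and 71.3% of all called genes were higher against 49.3% with TMM. Goblet-like cells had 40 and 13 lower (medians -1.32 and -1.43, background 34.7%), and library totals hardly moved the bulk of genes there (0.10). Paneth-like cells had 40 and 13 lower (medians -1.41 and -1.05, background 34.7%). Library totals moved the median of all genes in the Paneth-like contrast to -1.06 and the share of called genes that were higher from 48.4% to 21.3%, with the same counts of members. Enteroendocrine-like cells had 40 and 13 lower (medians -1.81 and -1.74, background 36.6%), and 39 and 12 with library totals, which moved the share called higher from 49.8% to 77.9%. Tuft-like cells had 39 and 13 lower (medians -1.10 and -0.83, background 26.0%), but 24 and 2 with library totals, with 74.4% of called genes higher against 44.5%. T-like cells of libraries 1 and 3, at median depths of 3689 and 3858.5 UMIs against 28191.5 and 29642 in enterocyte-like cells of those libraries, had 40 and 13 lower (medians -2.24 and -1.95, where 36.9% of 11423 genes were called lower). With library totals the T-like counts were 36 and 12, and the share called higher moved from 50.7% to 69.5%. The part of depth in the T-like values was not tested. DESeq2 size factors also raised the share of called genes that were higher, from 48.9% to 59.8% in stem-like, 50.0% to 62.2% in goblet-like, 48.4% to 62.0% in Paneth-like, 49.8% to 64.8% in enteroendocrine-like and 44.5% to 62.6% in tuft-like cells.

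**Figure D2:**
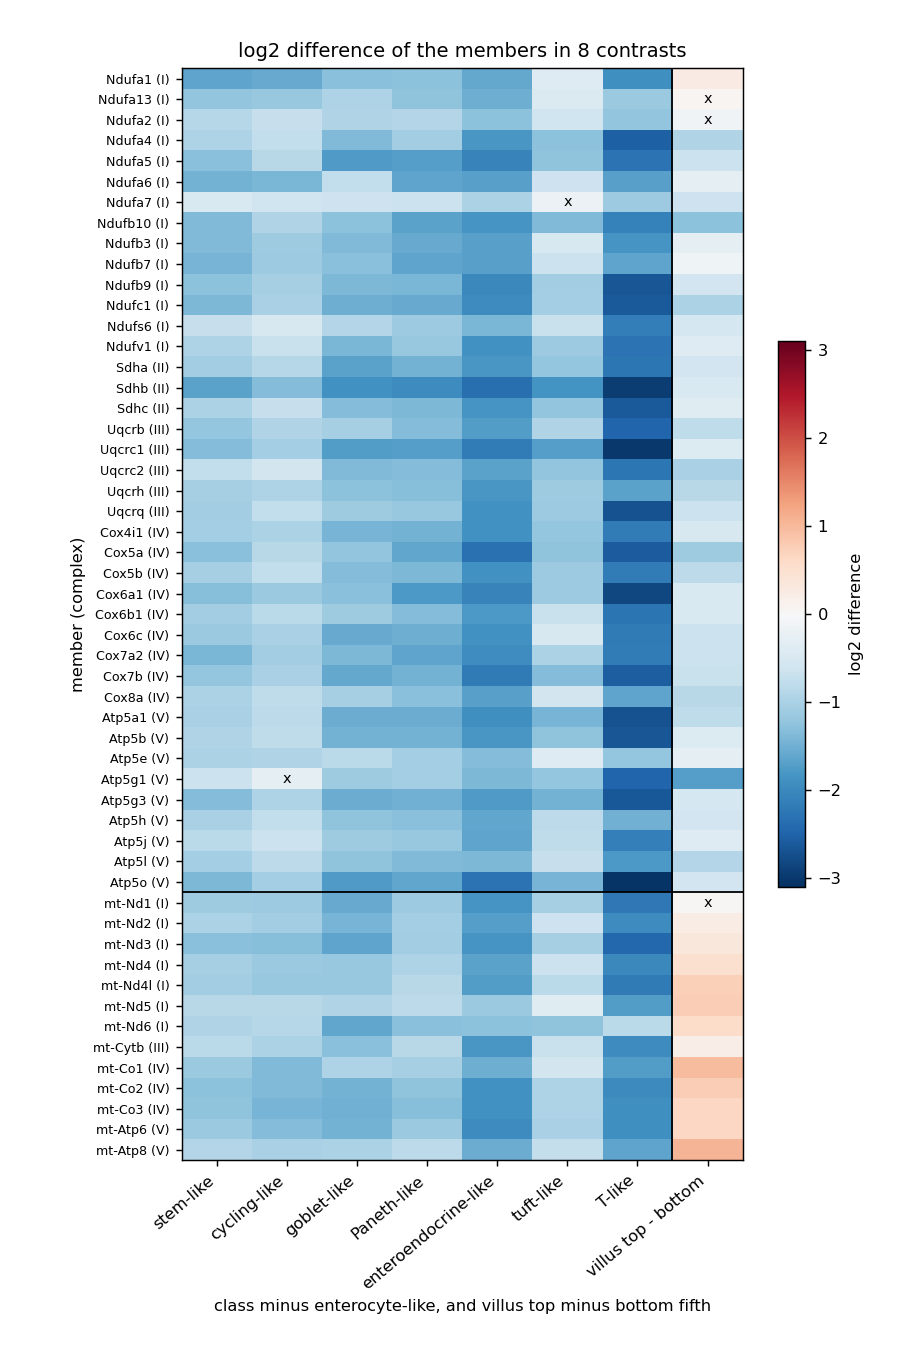
Heat map of log2 differences (colour, TMM scale) of the 53 members (rows, complex in brackets, nuclear above the line) in 7 class contrasts against enterocyte-like cells and the villus contrast (columns). An x marks a value with adjusted p at or above 0.05. The class columns are blue throughout, and the villus column is blue for most nuclear members and red for mitochondrial ones.

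Levels of different genes are set side by side only as 3′ UMI counts, which are not scaled by gene length. For mt-Atp8 and mt-Nd4l, which share bases with their larger neighbours, a count need not be the level of a separate transcript. Ndufa4 was placed in complex I by its symbol alone, although its product binds complex IV. Of the nuclear members so placed, Ndufa4 was highest in enterocyte-like cells, at 1423, 1528, 1367 and 1460 CPM in libraries 1 to 4. The stem-like libraries held Ndufa4 at 1223, 1222, 1157 and 1243 CPM, below every enterocyte-like library. Ndufa1, an accessory subunit, was called lower in each of the 7 class contrasts, by 1.62 in stem-like (SE 0.13, adjusted p = 1.17e-12) and least in tuft-like cells at -0.41 (SE 0.14, adjusted p = 0.0157). Library totals turned that tuft-like value to 0.23, and by CPM Ndufa1 was higher in tuft-like than in enterocyte-like cells in 3 of 4 libraries. Ndufa7, another accessory subunit, differed least among nuclear complex I members in 6 of the 7 contrasts on this scale, cycling epithelial-like cells excepted, where Ndufs6 was at -0.50 (0.21 with library totals, with every cycling library above every enterocyte-like one by CPM). The CPM of Ndufa7 went the other way in stem-like cells, with 398.8, 372.4, 367.9 and 350.3 CPM against 325.5, 329.7, 301.5 and 319.1 CPM in enterocyte-like cells. The stem-like groups do not overlap for Ndufa7, and its log2 difference was -0.48 with TMM (SE 0.12, adjusted p = 0.000654) and 0.22 with library totals.

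Complex II has no mitochondrial member, and Sdhb is its iron-sulfur subunit. In enterocyte-like cells Sdhb was at 627.0, 669.0, 558.4 and 608.9 CPM, and in stem-like cells at 316.3, 325.1, 295.6 and 335.8 CPM. The libraries of these 2 classes are well apart. Sdhb had the lowest log2 difference of the 3 complex II members in each of the 7 class contrasts, from -1.34 in cycling epithelial-like cells (SE 0.12, adjusted p = 2.92e-11) to -2.95 in T-like cells (SE 0.27, adjusted p = 2.45e-08). The 7 contrasts share the enterocyte-like sums, so a like order of members across them is not independent. Sdha, the flavoprotein subunit, was at -1.07 and Sdhc, a membrane anchor, at -0.99 in stem-like cells.

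In complex III, Uqcrc1, a core subunit, had the lowest value of the 5 nuclear members in the same 7 contrasts, at -1.35 in stem-like and -2.99 in T-like cells. Uqcrc2, the other core subunit, was at -0.76 in stem-like and -0.56 in cycling epithelial-like cells (SE 0.15, adjusted p = 0.000965). Library totals turned the cycling value to 0.15, and its CPM was higher in cycling than in enterocyte-like cells in 4 of 4 libraries. The mitochondrial member mt-Cytb, cytochrome b, was lower by 0.83 in stem-like cells (SE 0.17, adjusted p = 5.16e-05).

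Complex IV held the most abundant nuclear member, Cox4i1, with 2569, 3018, 2450 and 2709 CPM in enterocyte-like cells. In goblet-like cells Cox4i1 was at 811.2, 1192, 1142 and 1120 CPM, and in Paneth-like cells at 538.6, 504.4, 426.3 and 406.8 CPM. No library of those 2 classes reached the enterocyte-like range. On the TMM scale all 9 nuclear complex IV members were called lower in every class contrast, with log2 differences from -0.50 (Cox6c, tuft-like) to -2.82 (Cox6a1, T-like). In tuft-like cells library totals turned Cox6c to 0.14 and Cox8a to 0.074. The catalytic subunit mt-Co1 was at -0.58 in tuft-like cells (SE 0.17, adjusted p = 0.00724) and at -1.72 in T-like cells. The tuft-like value turned to 0.056 with library totals, and the CPM of mt-Co1 was higher in tuft-like cells in 3 of 4 libraries. Of the mitochondrial UMIs, mt-Co1 took a median of 15.3% in enterocyte-like and 19.9% in goblet-like cells, while mt-Co3 took 20.9% and 18.8%.

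Within complex V, Atp5g1, which encodes subunit c of the rotor ring, differed least of the 9 nuclear complex V members in the stem-like and cycling contrasts. It stood at 1165, 1386, 1016 and 1190 CPM in enterocyte-like cells and at 1487, 1677, 1434 and 1697 CPM in cycling epithelial-like cells. Every cycling library was thus above every enterocyte-like one by CPM, while the log2 difference was -0.30 with TMM (SE 0.15, adjusted p = 0.0702) and 0.41 with library totals. Atp5o, a stalk subunit, had the lowest value of any member in T-like cells, at -3.05 (SE 0.25, adjusted p = 4.22e-09). The catalytic subunit Atp5b was at -0.94 in stem-like and -2.65 in T-like cells. The most abundant member in libraries 1 to 3, mt-Atp6 (mt-Co3 was above it in library 4), ranged from 24139.5 to 26984 CPM in enterocyte-like cells and from 17388 to 19375 CPM in stem-like cells.

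By CPM without TMM, 35 of 40 nuclear members lay below every enterocyte-like library in every stem-like library, where 22.6% of genes did so. The count was 20 of 40 in cycling epithelial-like (22.3% of genes), 40 of 40 in goblet-like (27.2%), 40 of 40 in Paneth-like (58.7%), 39 of 40 in enteroendocrine-like (15.1%) and 21 of 40 in tuft-like cells (15.9%). For mitochondrial members it was 7 of 13 in stem-like, 8 of 13 in cycling epithelial-like, 12 of 13 in goblet-like, 13 of 13 in Paneth-like, 8 of 13 in enteroendocrine-like and 2 of 13 in tuft-like cells.

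Immune classes held few respiratory transcripts of nuclear origin. Their nuclear shares, as medians of libraries 1 and 3, were 1.55% in T-like, 1.23% in B-like, 0.721% in plasma-like and 1.37% in myeloid-like cells. Mitochondrial shares were 5.90%, 6.65%, 3.71% and 4.25% in the same order. B-like cells reached a mitochondrial to nuclear ratio of 5.78 and 5.12 and plasma-like cells 4.88 and 5.399, above the enterocyte-like libraries, while myeloid-like cells at 2.74 and 3.51 overlapped them. These droplets also held enterocyte transcripts. Summed enterocyte markers stood at 3886 to 14513 CPM in the 4 immune classes, against 123783 to 136980 CPM in enterocyte-like cells, and their part in the immune values was not tested.

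Other genes of the pathway were read from 9 lists. Of 41 further subunits tested, 39 were lower and 1 higher in stem-like cells (median -0.89), and 40 of 41 were lower in T-like cells. Of all genes tested, 41.2% and 36.9% were called lower in these contrasts. Library totals left 14 lower and 3 higher in stem-like cells, where 10022 of 12390 genes were called and 7006 of them were higher. Cycs, cytochrome c, was at 370.7 CPM in stem-like and 1027 CPM in enterocyte-like cells over the libraries together (log2 difference -2.13, SE 0.14, adjusted p = 3.35e-14). Atp5g2, a further gene for subunit c, was the exception in stem-like cells at 0.37 (SE 0.13, adjusted p = 0.0111). Among tissue isoforms, Cox7a1, known from heart and muscle, was at 449.6 CPM in enterocyte-like against 45.7 CPM in stem-like cells (log2 difference -4.05, SE 0.22, adjusted p = 2.70e-16).

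Genes that keep and read mitochondrial DNA went the other way in the crypt classes. Of 28, 21 were higher and 2 lower in stem-like cells (median 0.97), where 39.4% of genes were called higher, and 24 were higher and 2 lower in cycling epithelial-like cells (median 1.03, where 40.7% of genes were called higher). Library totals gave 26 and 27 higher, where 7006 and 7388 of the 12390 genes tested were called higher. Mgme1, a mitochondrial exonuclease, was at 19.1 CPM in stem-like and 1.91 CPM in enterocyte-like cells (log2 difference 2.63, SE 0.16, adjusted p = 3.70e-15). Proteins of the mitochondrial ribosome were higher for 40 and lower for 21 of 78 genes in stem-like cells, and higher for 52 and lower for 10 in cycling epithelial-like cells. Library totals gave 66 higher and 4 lower in stem-like and 74 higher and 1 lower in cycling epithelial-like cells, beside 7006 and 7388 of all genes higher. DESeq2 gave 55 and 10 and 66 and 6, beside 5989 and 5966 of all genes higher. In T-like cells 51 of the 78 were lower and 3 higher, but on library totals 23 were higher and 17 lower. On those totals 6304 of the 11423 genes tested in the T-like contrast were called higher.

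Among 13 regulators, 5 were higher and 8 lower in stem-like cells, beside 39.4% and 41.2% of all genes, and library totals gave 6 and 5. Ppargc1a, the coactivator PGC-1alpha, was at 15.3 CPM in stem-like and 80.4 CPM in enterocyte-like cells (log2 difference -3.14, SE 0.17, adjusted p = 2.44e-16), while its relative Pprc1 was at 21.4 and 0.878 CPM (3.93, SE 0.16, adjusted p = 8.93e-19). Of 46 assembly factors tested, 12 were higher and 23 lower in stem-like cells, but 27 were higher and 9 lower on library totals. On those totals 7006 of the 12390 genes tested were called higher. Citric acid cycle genes were lower for 10 of 14 and higher for 2, glycolysis genes lower for 11 of 14 and higher for 1. Library totals gave 7 lower and 5 higher, and 9 lower and 3 higher. Cytosolic ribosome genes were higher for 80 of 87, a list matched by symbol that also takes in S6 kinases, of which 10 were found.

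Enterocyte-like cells were then ranked within each library by summed villus tip genes minus base genes and divided into 5 groups of equal size. From the bottom to the top group the mitochondrial share rose while the nuclear share fell, in 4 of 4 libraries. Mitochondrial members made up 11.0%, 10.2%, 11.2% and 9.97% of UMIs in the bottom groups of libraries 1 to 4 and 13.3%, 12.95%, 14.8% and 14.3% in the top groups. Nuclear members made up 4.70%, 4.52%, 4.32% and 4.41% at the bottom and 2.08%, 3.36%, 1.87% and 2.69% at the top. Bottom and top groups do not overlap for either share. The ratio of the 2 went from 2.33, 2.26, 2.59 and 2.26 to 6.39, 3.86, 7.92 and 5.30, a log2 rise of 0.77 to 1.62 (exact paired permutation p = 0.125, the smallest 4 libraries allow).

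**Figure D3:**
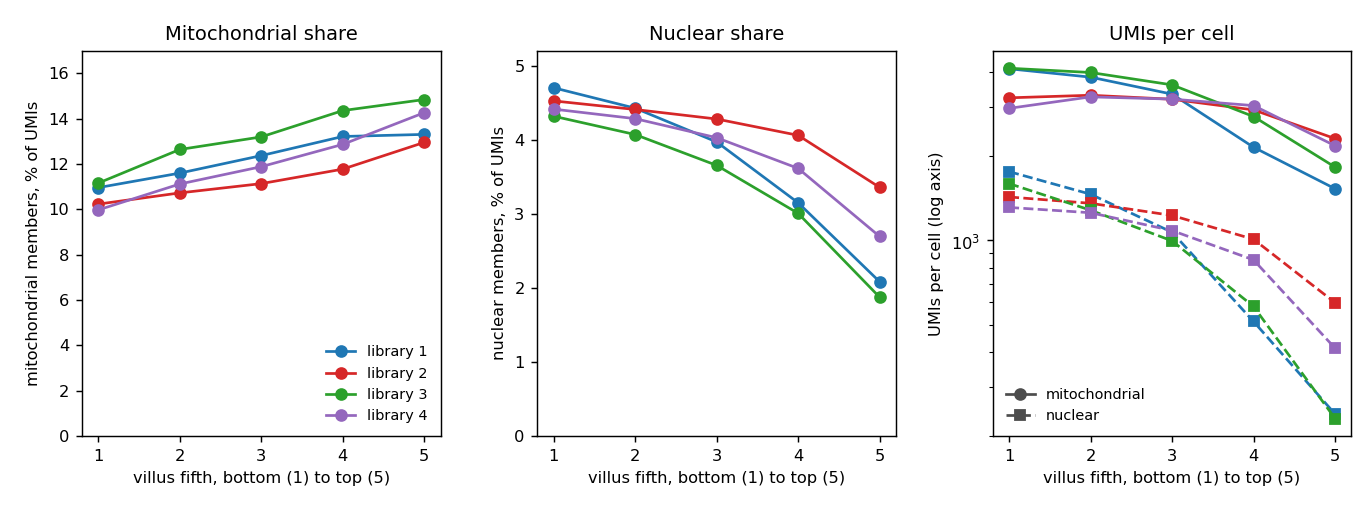
Mitochondrial share (left), nuclear share (middle), both in % of UMIs, and UMIs per cell on a log axis (right), for each villus position group from bottom (1) to top (5), 1 line per library. Shares diverge towards the top, reaching 14.8% mitochondrial and 1.87% nuclear in library 3, while UMIs per cell fall for both kinds between the bottom and top groups.

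Depth moved with position. Median UMIs per cell were 37594, 31368, 36995 and 28970 at the bottom and 9821, 19475, 10430 and 14266 at the top. Mitochondrial UMIs per cell therefore also ended lower, at 4110, 3236, 4129 and 2967 against 1531, 2313, 1829 and 2181. Nuclear members went from 1763, 1430, 1597 and 1312 UMIs per cell to 239.6, 599.3, 230.9 and 411.8. Fewer captured transcripts and a smaller cell content cannot be told apart here.

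In the test of the top against the bottom group, 12 of 13 mitochondrial members were higher and none lower (median 0.64), where 38.6% of the 11905 genes tested were called higher. Of the 40 nuclear members 37 were lower and 1 higher (median -0.59), where 37.0% of genes were called lower. Library totals gave 10 mitochondrial members higher and 1 lower, and 39 nuclear members lower, and moved the median of all genes from 0.02 to -0.18 and the share of called genes that were higher from 51.0% to 40.7%. Among barcodes of 20000 to 40000 UMIs only, ranked again in an alternative chosen after seeing the data, 11 mitochondrial members were higher (median 0.37) and 33 nuclear members lower (median -0.27), so both medians shrank and kept their sign. The limit on mitochondrial UMIs also set the size. At 15% there were 7 mitochondrial members higher and 1 lower (median 0.26) and 35 nuclear members lower (median -0.39), and at 50% there were 13 higher (median 1.18) and 38 lower (median -0.81).

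**Figure D4:**
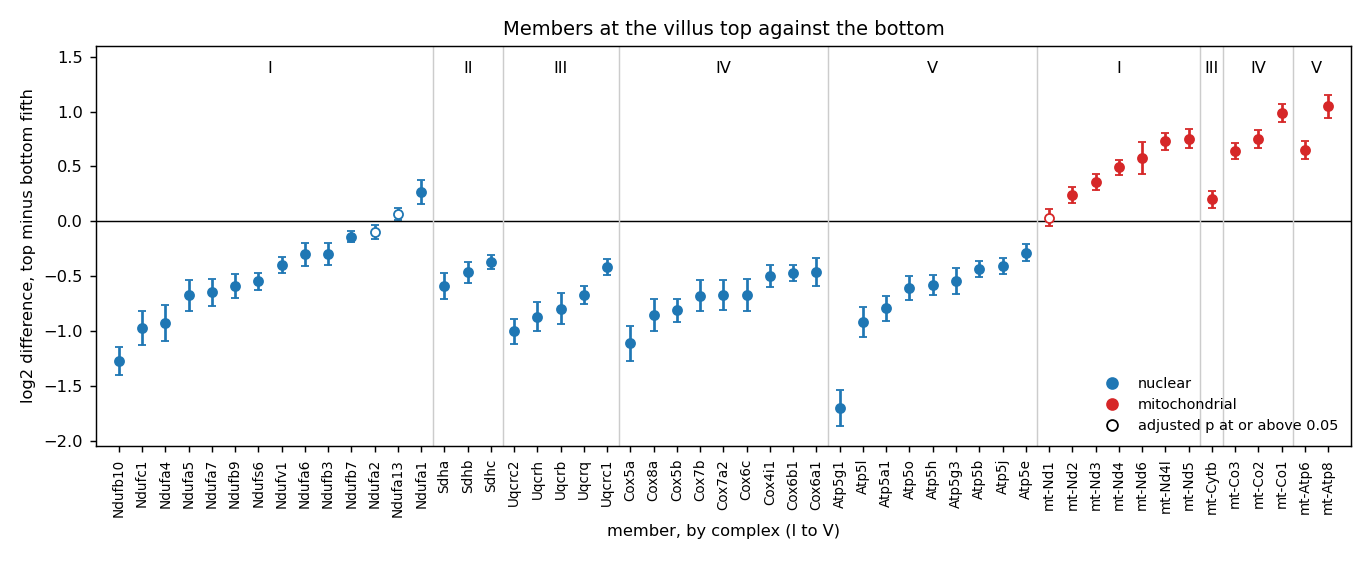
log2 difference of each member, top minus bottom villus group (y axis, TMM scale, bars are SE, library as a block, open points have adjusted p at or above 0.05), grouped by complex along the x axis. Red mitochondrial members run from 0.03 (mt-Nd1) to 1.05 (mt-Atp8), and blue nuclear members from -1.70 (Atp5g1) to 0.26 (Ndufa1).

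The steepest nuclear member was Atp5g1. Its CPM at the bottom was 1658, 1719.5, 1476.5 and 1611 in libraries 1 to 4, and at the top 281.5, 753.4, 271.7 and 530.0. All 4 top groups lay below all 4 bottom groups, with a log2 difference of -1.70 (SE 0.16, adjusted p = 6.82e-08). Ndufb10 of complex I (-1.27), Cox5a of complex IV (-1.11) and Uqcrc2 of complex III (-1.002) followed. Complex II had a median of -0.46, beside -0.47 for nuclear complex I, with Sdha at -0.59, Sdhb at -0.46 and Sdhc at -0.37. No call was made for Ndufa13 at 0.06 (SE 0.06, adjusted p = 0.316), which library totals turned to -0.14, or for Ndufa2 at -0.10 (SE 0.06, adjusted p = 0.161). By CPM both were lower at the top in 4 of 4 libraries. Ndufa1 was called higher at 0.26 (SE 0.11, adjusted p = 0.0378), but its CPM was lower at the top in libraries 1 and 3 and higher in 2 and 4, and the call was lost without library 2, without library 3 or without library 4.

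Mitochondrial members did not rise evenly. The largest differences were in mt-Atp8 (1.05, SE 0.11, adjusted p = 1.27e-07) and mt-Co1 (0.99, SE 0.08, adjusted p = 1.07e-08). Reads in the bases that mt-Atp8 shares with mt-Atp6 cannot be told apart, and their part in the mt-Atp8 value was not tested. Levels of mt-Co1 rose from 15714, 14269.7, 15123 and 13909 CPM to 25217, 21495, 29146 and 24160.4 CPM, with no overlap. In contrast mt-Nd1 was at 6609, 5599, 6714 and 5956 CPM at the bottom and 4987, 5451, 5372 and 5853 CPM at the top (log2 difference 0.03, SE 0.07, adjusted p = 0.69), lower by CPM in 4 of 4 libraries. The difference for mt-Cytb was 0.20 (SE 0.08, adjusted p = 0.0247) with TMM and near 0 with library totals. By CPM, 8 of 13 mitochondrial members were higher and 1 was lower in 4 of 4 libraries, and 39 of 40 nuclear members were lower in 4 of 4. The share of all genes that did so by CPM was not counted, so these counts have no background beside them.

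Other lists also fell along the villus. Of 41 further subunits 38 were lower, of 46 assembly factors 37, of 28 genes for mitochondrial DNA and RNA upkeep 25, of 78 mitochondrial ribosome genes 75 and of 86 cytosolic ribosome genes tested 80 (medians -0.82, -1.05, -1.28, -1.26 and -2.27). Of all 11905 genes tested, 37.0% were called lower and 38.6% higher. Library totals gave 40, 42, 26, 76 and 81 lower, where 8935 genes were called and 3641 of them were higher. Lrpprc, which stabilises mitochondrial mRNAs, was at 37.1 CPM at the bottom and 6.73 CPM at the top over the libraries together (log2 difference -2.35, SE 0.17, adjusted p = 2.35e-09). Cycs did not follow the other subunits, with 1007 and 993.6 CPM (0.18, SE 0.07, adjusted p = 0.0342). The isoform Cox6b2, described in testis, was at 1.86 CPM at the bottom and 32.1 CPM at the top (4.38, SE 0.27, adjusted p = 5.52e-10). Citrate synthase (Cs) was higher at 0.95 (SE 0.06, adjusted p = 1.34e-09), although 10 of 14 citric acid cycle genes were lower. Glycolysis genes split, with 5 higher and 6 lower of 14.

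Between the 4 libraries, nuclear members in enterocyte-like cells differed less than some mitochondrial ones. None of the 40 nuclear members and 4 of the 13 mitochondrial members had a highest library at least 1.5 times the lowest, where 12.6% of the 6319 genes at 10 CPM or more did. Those 4 were mt-Nd4l with 423.1, 212.1, 453.3 and 286.7 CPM, mt-Atp8 with 90.8, 48.7, 102.8 and 60.2 CPM, mt-Nd3 with 1785, 1061, 1852 and 1517 CPM, and mt-Nd6 with 31.1, 19.7, 28.6 and 21.6 CPM. Library 2 was lowest for each of the 4. Reads of mt-Nd4l and mt-Atp8 in the bases printed above cannot be told apart from those of their larger neighbours, and the part of this in the differences was not tested. The neighbours mt-Nd4 and mt-Atp6 had ratios below 1.5, and leaving out library 2 left 2 members past it.

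**Figure D5:**
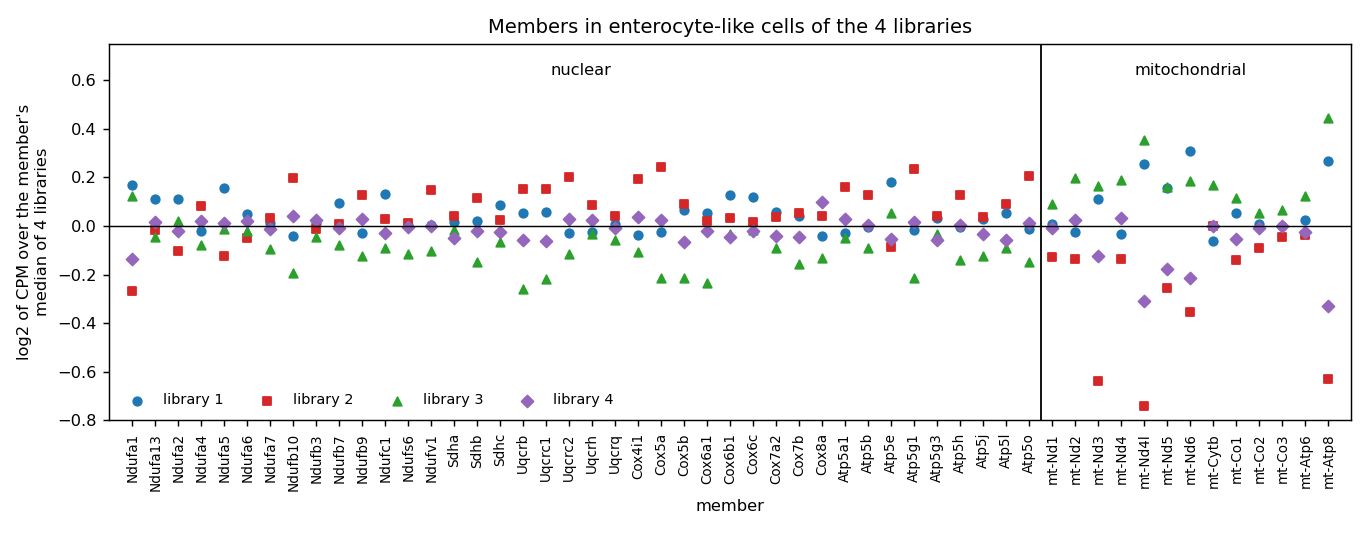
CPM of each member in enterocyte-like cells over its median of the 4 libraries (y axis, log2), 1 marker per library, nuclear members left of the line and mitochondrial members right. Nuclear members stay within a narrow band, and mt-Nd4l and mt-Atp8 spread most, with ratios of highest to lowest library of 2.14 and 2.11.

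Library 3 was highest and library 2 lowest for 11 of 13 mitochondrial members, and library 2 was highest and library 3 lowest for 23 of 40 nuclear members. How many of all genes followed either order was not counted, so these counts have no background and are not read as a trait of the members. Villus position differed between the libraries as well: of 5 position bins set over all libraries, the lowest held 862, 2244, 86 and 326 cells and the highest 1092, 228, 1138 and 1061 cells. With equal weight to the bins, summed mitochondrial members stood at 122439, 122906, 124278 and 116437 CPM and nuclear members at 37246, 35855, 37439 and 38861 CPM. Library 2 was then neither the lowest in mitochondrial nor the highest in nuclear members, and still 4 mitochondrial and 0 nuclear members were past 1.5-fold. Raising the mitochondrial limit to 50% gave 5 mitochondrial members and 1 nuclear member past it.

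Across single enterocyte-like cells thinned to 10000 UMIs, the nuclear members moved with one another more than with the mitochondrial members. Pearson correlations between the summed nuclear members of different complexes were 0.78 to 0.86, 0.62 to 0.75, 0.76 to 0.87 and 0.64 to 0.80 in libraries 1 to 4. Mitochondrial complex I and IV members correlated at 0.80, 0.81, 0.77 and 0.79. The mitochondrial share against the nuclear members' share of nuclear UMIs gave -0.18, -0.07, -0.26 and -0.28. Nuclear against mitochondrial members of the same complex gave -0.08, -0.04, -0.12 and -0.17 for complex I. For complex IV they gave -0.43, -0.34, -0.50 and -0.52. These values cover 3515, 4083, 2571 and 4598 cells, describe cells of 1 library that share its preparation and villus gradient, and are no test. They depend on the barcode filter, as given for the shares in the closing values.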

How the data were processed

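UMI counts per gene and barcode were deposited by the authors as 1 matrix, with Cell Ranger 6.1.1 and mm10 named in the submitters' processing notes. The labels describe no other step before deposit. Barcodes were filtered as stated above and gated on summed marker genes, with gates set after seeing the data, so class names are rebuilt ones. Barcodes passing more than 1 of the goblet, Paneth, enteroendocrine, tuft and immune gates were left out. As an exception, barcodes past the T and myeloid gates with myeloid markers under 200 per 10000 UMIs counted as T-like. Barcodes passing none of these gates took the first gate passed in the order cycling, stem, enterocyte. The 6% highest Scrublet scores were left out only as an alternative. UMIs were summed per library and class (at least 10 epithelial or 20 immune cells) and tested with edgeR 4.0.16 in R 4.3.3 (TMM, filterByExpr, quasi-likelihood, library as a block). The fits had 18 (epithelial), 4 (immune) and 12 (villus) residual degrees of freedom. The test was tested on simulated data, with 50 genes planted at each size. At log2 differences of -1 and 1 it recovered 30 and 33 in the stem-like fit and 29 and 35 in the villus fit. The T-like fit recovered only 4 and 3 of these, and 35 and 44 at -2 and 2. Apart from the planted genes, the simulation gave every class and library the same profile. It therefore could not probe the shift between TMM and library totals seen in the real contrasts. DESeq2 1.42.0 was an alternative. Python 3.11.15, scanpy 1.11.5, numpy 2.4.6 and scipy 1.17.1 did the rest. Kept barcodes held 143965013 to 190876926 UMIs per library, and intervals (exact, 95%) cover counting error only.

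The edgeR p-values measure how far differences between classes or villus groups vary across libraries, after library is taken out as a block. This is not the spread between pools, since each pool gave several sums and all classes or villus groups of a fit share it. The T-like p-values rest on T-like sums of libraries 1 and 3 alone. The members and gene lists were chosen with earlier results of these data known. All members may be named. From each other list the rule named up to 2 genes in each direction with the largest difference past adjusted p 0.05 and at least 10 CPM in 1 class, and the text gives some of these.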

Additional observations from a re-analysis of the deposited data

How the results depend on the processing

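Scaling by library totals moved the stem-like mitochondrial count to 8, the cycling epithelial-like nuclear count to 12 and the tuft-like nuclear and mitochondrial counts to 24 and 2. It also turned the sign of 22 single differences. In stem-like cells these were Ndufa7 (0.22) and Atp5g1 (0.034), and in cycling epithelial-like cells Ndufa7 (0.085), Ndufs6 (0.21), Ndufv1 (0.031), Uqcrc2 (0.15), Atp5g1 (0.41) and Atp5j (0.055). In tuft-like cells they were Ndufa1 (0.23), Ndufa2 (0.022), Ndufa7 (0.45), Ndufa13 (0.20), Ndufb3 (0.15), Cox6c (0.14), Cox8a (0.074), Atp5e (0.24), mt-Nd2 (0.0047), mt-Nd5 (0.25) and mt-Co1 (0.056). Along the villus they were Ndufa13 (-0.14), mt-Nd1 (-0.17) and mt-Cytb (-0.00065). A limit of 15% mitochondrial UMIs left 7 mitochondrial members higher along the villus and turned mt-Nd1 (-0.25), mt-Nd2 (-0.11), mt-Nd6 (-0.059) and mt-Cytb (-0.11). In the band of 20000 to 40000 UMIs Ndufb3 turned to 0.0080. A limit of 50% put 1 nuclear member past 1.5-fold between libraries. Across cells, the mitochondrial share against the nuclear members' share of nuclear UMIs gave correlations of -0.360, -0.199, -0.346 and -0.401 without thinning. At the 50% limit they were -0.405, -0.200, -0.498 and -0.520. Beyond the scaling values, the cause was not tested. Leaving out 1 library at a time gave 2 to 4 mitochondrial members past 1.5-fold, and 34 to 38 nuclear and 10 to 11 mitochondrial members called along the villus. DESeq2, no gene filter, a stricter depth minimum, the removal of high doublet scores and stricter gates kept every count of called members within 1.5 times. The medians of the members were less stable. With DESeq2 12 medians moved and 4 did not, and without the gene filter 6 moved and 10 did not. The stricter depth minimum moved 2, the removal of doublet scores 3 and stricter gates 3. With DESeq2 the stem-like median of the further subunits went from -0.89 to -0.53. The T-like contrast could not be fitted without library 1 or library 3, since no residual degrees of freedom remained. No paired analysis was possible because the barcode numbers carry no replicate number from the labels, so same-numbered control and IPA samples could not be paired. The block in the contrasts and the paired permutation tests used the library itself.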
